A study of Mus musculus with 15 samples.

Results

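The comparison described here is the effect of a Batf3-deficient host on transferred CD4 T cells, averaged over CD62L- and CD62L+ cells. It used the 12 libraries of primed cells among the 15 of the series, and all 19197 genes that passed a filter on low counts among the 49492 of the deposited table. Members were chosen by recipient alone, and the measure is the mean of both Batf3-/- groups minus the mean of both wild-type (WT) groups, with the subset kept in the model. The sequenced cells were OT-II T cells, whose transgenic receptor recognises a peptide of ovalbumin (OVA), and they carried the congenic marker CD45.1. Sorted naive cells of untreated CD45.1 x OT-II mice were injected into Batf3-/- or C57BL/6 (WT) recipients, both CD45.2+. Only the recipients lacked Batf3, so donor cells with an intact gene were sequenced in every group. All recipients received OVA (60 µg) and the cysteine protease papain (30 µg) into the nose 3 times at intervals of 6 to 8 hours, beginning 24 hours after transfer. CD44-high CD45.1+ cells were sorted from the mediastinal lymph node at day 5. The 4 groups are Batf3-/- CD62L-, Batf3-/- CD62L+, WT CD62L- and WT CD62L+, with 3 libraries each. Recipient ages are not given in the sources used here. No label ties a library to an animal or a pool, although replicates are described as independent, so all p-values here reflect how much these particular libraries differed.

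Batf3 is a transcription factor that type 1 conventional dendritic cells need to develop. These dendritic cells carry antigen to lymph nodes, cross-present it and are a source of interleukin 12, and mice without Batf3 in the germline lack most of them. Papain given through the airway is a model of allergic, type 2 priming, in which CD4 T cells make interleukin 4 and the lymph node holds follicular helper T cells. CD62L is the adhesion receptor with which lymphocytes enter lymph nodes, and effector T cells shed it.

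Library totals ran from 70712711 to 89129489 counts in Batf3-/- libraries and from 38082967 to 99380475 in WT libraries. Batf3-/- CD62L- libraries held more counts (77620291 to 89129489) than WT CD62L- libraries (38082967 to 64938211). Genes with counts numbered 20060 to 20805 in Batf3-/- CD62L- and 19260 to 19942 in WT CD62L- libraries. The third WT CD62L- library stood apart on the first principal component. Ribosomal RNA took 3.86 to 5.26% of the counts of the libraries numbered 1 and 8.65 to 16.7% of the others, in every group. Batf3 held 33 counts over the 12 libraries, under the filter, and its level in donor cells is no check of the recipients' genotype. Among the dendritic cell markers, Clec9a was at 0 in all 12 libraries. The markers of the labelled cell type, CD4 T cells, summed to 19341 to 22096 CPM in Batf3-/- libraries and 19734 to 23291 CPM in WT libraries. CPM are counts scaled to a common library size (per 1e6 counts).

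In cells primed in Batf3-/- recipients, Il4 and other genes of type 2 T cells, the migration genes Myo6, Ccr2 and Itgb1, and the signalling genes Rgs1 and Malt1 were lower. The interferon-induced genes Oas1a and Usp18, the heat shock gene Hspa1b, Myc and 3 genes of ribosome biogenesis were higher. Of the 19197 genes, 65 passed in the recipient average (0.339%), 38 higher (0.198%) and 27 lower (0.141%), at a Benjamini-Hochberg adjusted p under 0.05 in the quasi-likelihood test of edgeR. The sizes were modest, and 20 of the 65 differed at least 2-fold, 11 higher and 9 lower. The 11 include Wdfy4 and Gm43291, at or near 0 in WT CD62L- libraries, so the size of their folds is uncertain. They also include Nrgn, with a log2 fold change of 2.33 in CD62L+ and 0.25 in CD62L- cells. In bulk libraries a lower level can come from fewer cells that make a transcript or from less of it per cell, and these cannot be told apart.

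The subsets were sequenced in different libraries, so each gives an estimate of the recipient difference. No label says whether CD62L- and CD62L+ libraries came from the same animals, so these estimates may not be independent. Of the 65 genes, 64 had the same sign in CD62L- and in CD62L+ cells, the exception being Wdfy4, and 57 had an unadjusted p under 0.05 in each (9.94% and 5.55% of all genes tested had one in CD62L- and CD62L+ cells). The 65 genes were called on the average of both subsets, so a shared sign is a description and no test. The 57 genes whose 3 Batf3-/- and 3 WT libraries did not overlap within either subset compare with 2.76% of all genes tested. Taken 6 against 6 across both subsets, 19 genes did not overlap (10 lower, 9 higher; 0.766% of all genes tested). Tested within a subset, 14 genes passed in CD62L- cells (0.0729%), 4 higher (0.0208%) and 10 lower (0.0521%), and 7 in CD62L+ cells (0.0365%), 5 higher (0.026%) and 2 lower (0.0104%). Myo6 and Oas1a passed in both. Leaving out 1 library at a time left 0 to 13 genes in CD62L- cells (0 without the second WT CD62L- library) and 0 to 7 in CD62L+ cells (0 without the second Batf3-/- library of either subset, the first or second WT CD62L- library or any WT CD62L+ library). No gene passed the test of the difference between subsets in edgeR, where 757 genes (3.94%) had an unadjusted p under 0.05. DESeq2 called 43 genes for that difference, and limma's voom called 1.

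Genes called in one subset can be read in the other, although all 12 libraries shared the filter, the scaling and the estimate of spread, so the choice was not independent of the other subset's libraries. Libraries with the same number may also share animals across subsets, which the labels do not settle. Of 14 genes called in CD62L- cells 13 kept their sign in CD62L+ cells (92.9%), as did 7 of 7 in the other direction, against 60.3% of all genes tested. At an unadjusted p under 0.01, 434 of 531 genes chosen in CD62L- cells (81.7%) had the same sign in CD62L+ cells, and 244 of 296 chosen in CD62L+ cells (82.4%) had it in CD62L- cells. Across the 9308 genes with a mean log2 CPM of 3 or more, log2 fold changes in both subsets had a Pearson correlation of 0.39 and a Spearman correlation of 0.35. Over all 19197 genes tested these correlations were 0.0754 and 0.222. This is a description across genes, which are not independent replicates.

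**Figure D1:**
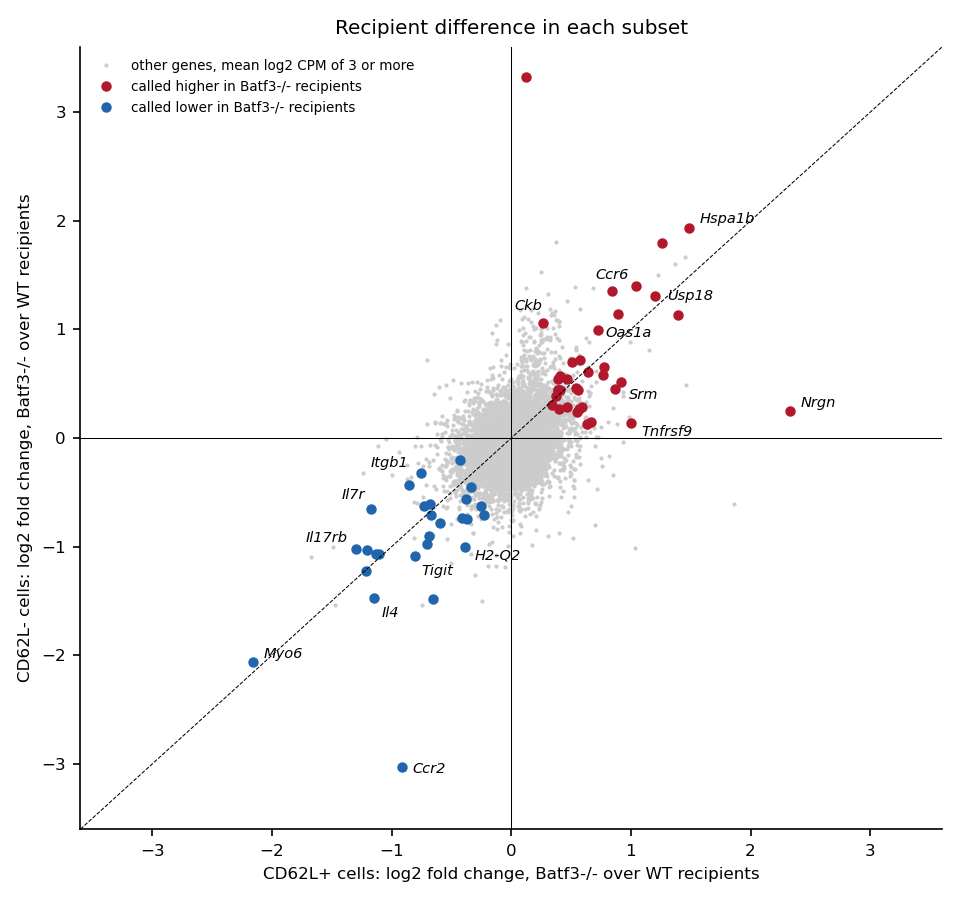
Recipient log2 fold change (Batf3-/- over WT) of each gene in CD62L+ cells (horizontal) and in CD62L- cells (vertical). Grey points are genes with a mean log2 CPM of 3 or more, coloured points are the called genes (63 within the axes, 2 outside), and nearly all coloured points lie in the quadrants of equal sign.

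How many genes passed rested on single libraries. Leaving out 1 library at a time left between 15 and 72 calls. The count fell by more than 1.5 times without 7 libraries. It was 15 without the second Batf3-/- CD62L- library, 24 and 33 without the third and second Batf3-/- CD62L+ libraries, 36 without the second WT CD62L- library, and 25, 33 and 35 without the third, second and first WT CD62L+ libraries. All 65 genes kept their direction in each of the 12 fits. The 15 genes called in all 12 are Myo6, Ccr2, Il17rb, H2-Q2, Art2b, Nipal1, Rgs1, Anxa2, Malt1, Itgb1 and Smpdl3a, lower, and Oas1a, Oas1g, Srm and Nrn1, higher. Without the CD62L- libraries numbered 3 of both recipients 24 genes passed, 22 of them among the 65. In the libraries numbered 1 alone and in those numbered 2 and 3 alone, 65 of 65 genes had the sign of the average. The 65 genes were called on these same 12 libraries, so a kept direction is a description and no test.

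**Figure D2:**
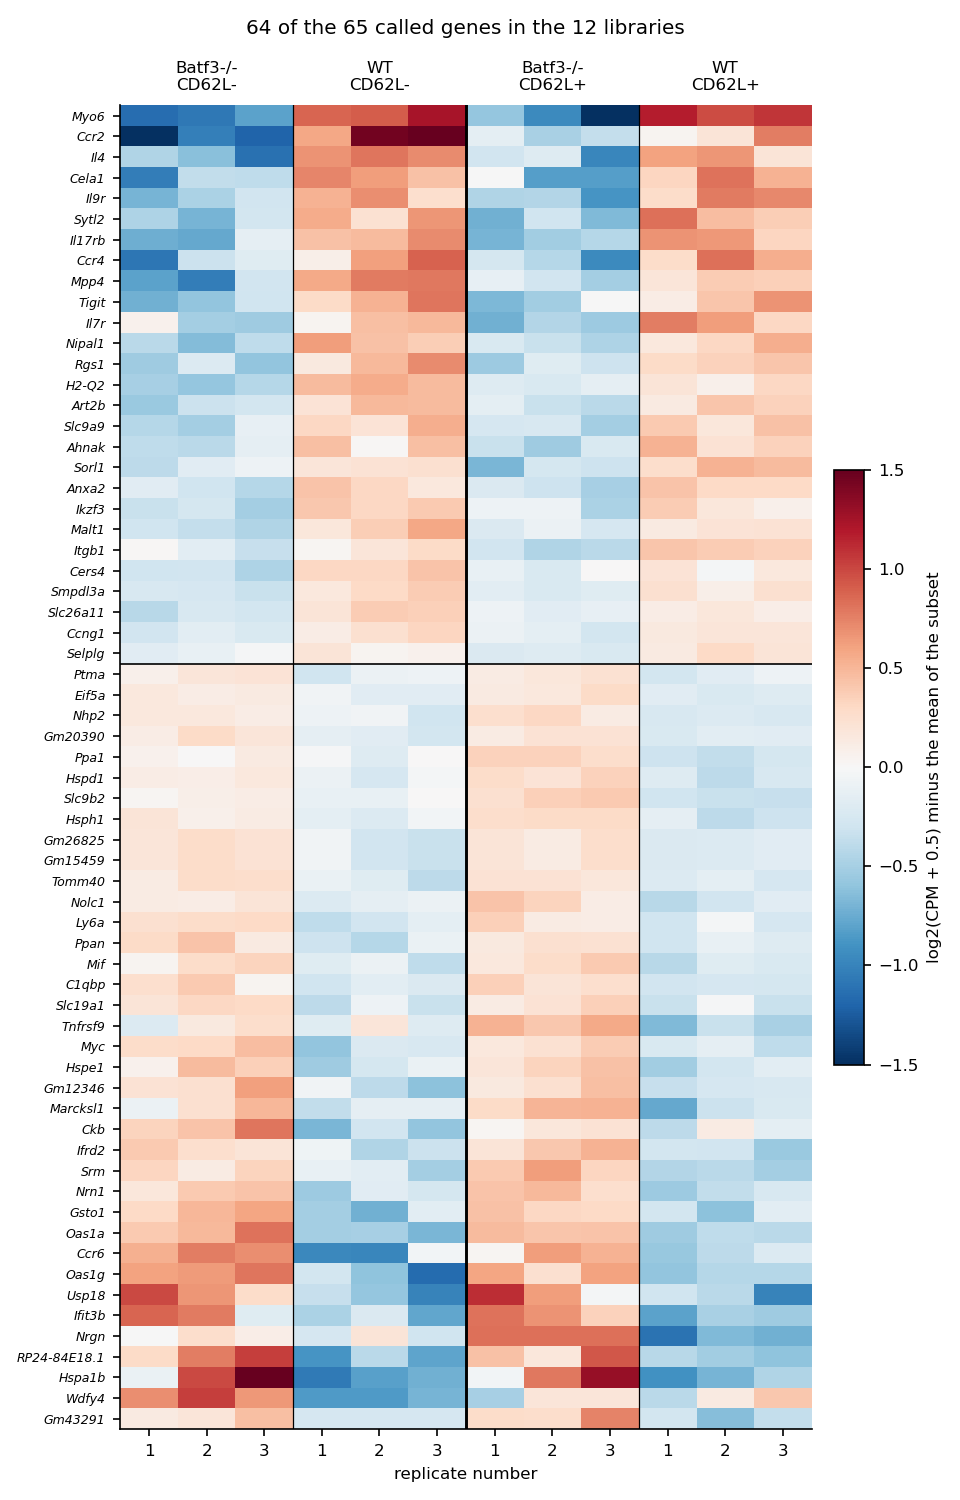
Recipient difference of 64 of the 65 called genes (rows) in the 12 libraries (columns, Batf3-/- left of WT within each subset), as log2(CPM + 0.5) minus the mean of the 6 libraries of that subset, with the colour scale ending at 1.5 in either direction (4 cells lie past it). Most genes of the lower block and of the higher block have the same direction in CD62L- and CD62L+ columns. Exceptions include Wdfy4, whose sign differed between subsets. Nrgn, Tnfrsf9, Ppa1 and Ckb had libraries that overlapped between recipients within a subset.

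Il4, Il17rb, Il9r and Ccr4, genes of type 2 T helper cells, were lower in cells from Batf3-/- recipients. Il4 encodes interleukin 4, the cytokine that drives the type 2 response. It stood at 12.9, 11.3 and 7.92 CPM in the Batf3-/- CD62L- libraries against 28.7, 31.3 and 29.5 CPM in the WT CD62L- libraries. In CD62L+ cells it was far lower in both hosts, at 1.86, 2.03 and 0.97 CPM in Batf3-/- against 3.91, 4.07 and 2.81 CPM in WT libraries. Every Batf3-/- library was below every WT library of its subset. The average was 2.48-fold lower (log2 fold change -1.31, SE 0.20, adjusted p = 0.0154). It was called in 11 of the 12 fits that left out a library, with an adjusted p of 0.0519 without the second Batf3-/- CD62L- library.

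Il17rb is the receptor subunit for interleukin 25, an epithelial cytokine of type 2 responses. Its level was 26.8, 26.2 and 41 CPM in Batf3-/- CD62L- and 17.2, 19.4 and 20.8 CPM in Batf3-/- CD62L+ libraries, against 61.1, 62.8 and 73.9 CPM in WT CD62L- and 45.4, 44.6 and 35.4 CPM in WT CD62L+ libraries. The difference was 2.14-fold (log2 fold change -1.1, SE 0.13, adjusted p = 0.00805) and nearly the same in both subsets, at -1.07 and -1.13. Il9r, the interleukin 9 receptor, ranged over 2.87 to 8.49 CPM (median 5.15) in Batf3-/- and 7 to 17.2 CPM (median 11.3) in WT libraries, and fell by 1.16 on the log2 scale (adjusted p = 0.0121). Ccr4, a chemokine receptor of type 2 and skin-homing T cells, ranged over 10.8 to 24 CPM (median 19.7) in Batf3-/- and 25 to 51.6 CPM (median 39.4) in WT libraries without overlap. Its fold was 2.12 (adjusted p = 0.047), and it was called in 3 of the 12 fits that left out a library.

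These 4 genes were the only ones of the 15 tested type 2 genes that passed, all lower, while 0.141% of all genes tested passed in that direction. The list had a median log2 fold change of -0.32 (-0.36 in CD62L- and -0.32 in CD62L+ cells), against 0.002 for all genes tested. The median depended on which libraries were read, at -0.84 in the libraries numbered 1 and -0.04 in those numbered 2 and 3. Gata3, the transcription factor that directs type 2 differentiation, was not called by edgeR (313 ± 33.4 and 347 ± 39.3 CPM in Batf3-/- CD62L- and CD62L+ libraries, 402 ± 30.2 and 433 ± 63.7 CPM in the WT ones; SD, n = 3 each; edgeR adjusted p = 0.164), and had an adjusted p of 0.0267 by DESeq2 and 0.0454 by voom. Il1rl1, the interleukin 33 receptor, had 0, 0.127 and 0 CPM in Batf3-/- CD62L- and 2.8, 1.66 and 4.56 CPM in WT CD62L- libraries and was not called either (adjusted p = 0.271).

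**Figure D3:**
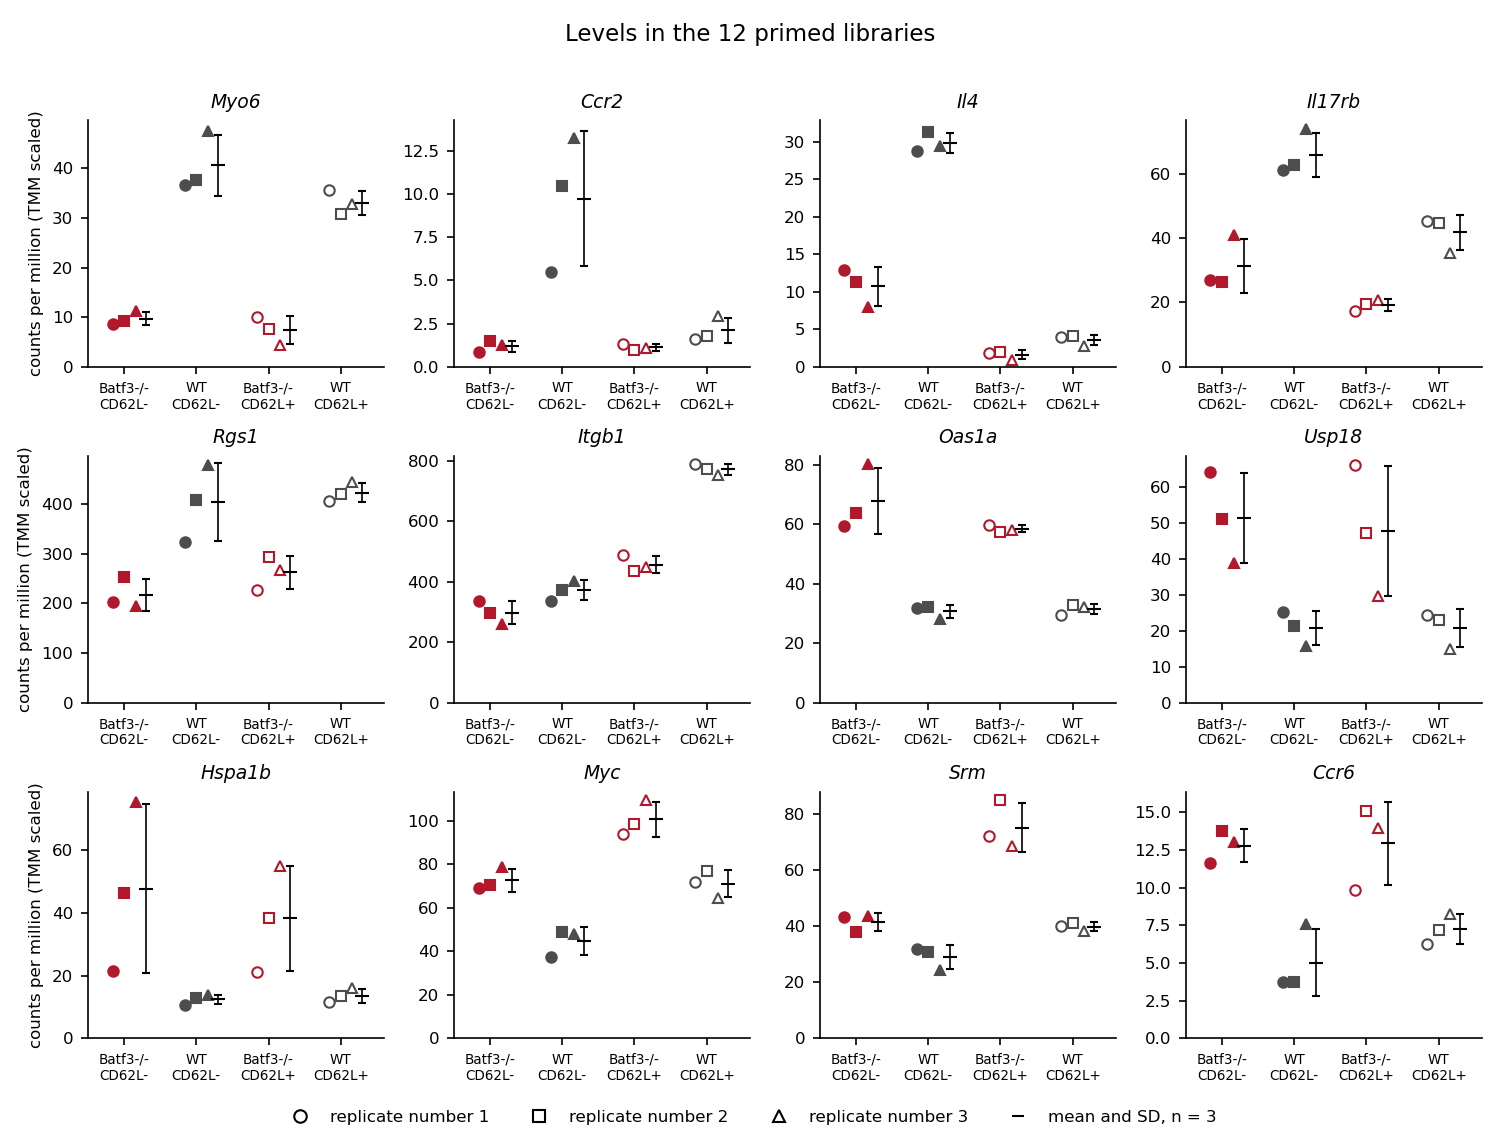
Level of 12 genes in CPM in each library, with Batf3-/- groups left of WT groups; filled symbols are CD62L- and open symbols CD62L+ libraries, marker shape gives the replicate number, and bars give the mean and SD of the 3 libraries. Myo6, Ccr2, Il4, Il17rb, Rgs1 and Itgb1 are lower and Oas1a, Usp18, Hspa1b, Myc, Srm and Ccr6 are higher in Batf3-/- groups.

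Myo6, Ccr2, Itgb1, Anxa2 and other genes of cell migration were lower as well. Myo6 encodes myosin VI, the motor that walks toward the minus end of actin filaments, and lies at chr9:80165031-80311729 (mm10). It stood at 8.71, 9.2 and 11.2 CPM in Batf3-/- CD62L- against 36.6, 37.6 and 47.6 CPM in WT CD62L- libraries, and at 10.1, 7.67 and 4.41 CPM in Batf3-/- CD62L+ against 35.5, 30.7 and 32.9 CPM in WT CD62L+ libraries. No Batf3-/- library reached the lowest WT library. With a 4.33-fold difference (log2 fold change -2.11, SE 0.18, adjusted p = 0.000612), it had the lowest p of the genes that were lower, and its log2 fold change was -2.07 in CD62L- and -2.16 in CD62L+ cells. It passed in all 12 fits that left out a library, with adjusted p at most 0.00544.

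Ccr2, a receptor for inflammatory monocyte chemoattractants on effector T cells, had 0.855, 1.47 and 1.24 CPM in Batf3-/- CD62L- and 1.32, 0.946 and 1.08 CPM in Batf3-/- CD62L+ libraries, against 5.51, 10.5 and 13.2 CPM in WT CD62L- and 1.58, 1.81 and 2.94 CPM in WT CD62L+ libraries. All 6 Batf3-/- libraries were below all 6 WT libraries. The average was 3.92-fold lower (log2 fold change -1.97, SE 0.27, adjusted p = 0.0121), 8.17-fold in CD62L- and 1.88-fold in CD62L+ cells. The unadjusted p of the difference between subsets was 0.00166, which was not called after adjustment. Itgb1, the integrin beta 1 chain through which T cells bind matrix and VCAM-1, averaged 297 ± 37.5 CPM in Batf3-/- CD62L- and 457 ± 27.2 CPM in Batf3-/- CD62L+ cells, against 371 ± 32.6 CPM in WT CD62L- and 771 ± 17.7 CPM in WT CD62L+ cells (SD, n = 3 each). Its difference was 1.45-fold (log2 fold change -0.54, SE 0.07, edgeR adjusted p = 0.00995). Selplg, the P-selectin ligand, ranged over 252 to 282 CPM (median 276) in Batf3-/- and 294 to 396 CPM (median 339) in WT libraries without overlap, and was 1.24-fold lower (adjusted p = 0.0361, called in 1 of the 12 fits that left out a library).

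One chemokine receptor went the other way. Ccr6, which binds Ccl20 and marks Th17 and memory cells, had 11.6, 13.8 and 13 CPM in Batf3-/- CD62L- and 9.83, 15.1 and 14 CPM in Batf3-/- CD62L+ libraries, against 3.77, 3.74 and 7.61 CPM in WT CD62L- and 6.3, 7.19 and 8.27 CPM in WT CD62L+ libraries. The 6 Batf3-/- libraries lay above the 6 WT libraries, the fold was 2.14 (log2 fold change 1.1, SE 0.20, adjusted p = 0.0428), and 2 of the 12 fits that left out a library called it. Ccr6 is also made by B cells, whose markers are given below. Of the 31 tested trafficking receptors 4 passed lower and 1 higher. An unadjusted p under 0.05 was found for 17 with lower and 1 with higher levels (58.1% in all), against 5.23% lower and 5.75% higher (11% in all) of all genes tested. The median log2 fold change of this list was -0.31, and it was -0.42 in the libraries numbered 1 and -0.25 in those numbered 2 and 3. Receptors near the threshold were Itgb7 (log2 fold change -0.31, adjusted p = 0.0506) and Cxcr6 (-0.87, adjusted p = 0.0856). S1pr1, the receptor for lymph node exit, was not called (adjusted p = 0.214), and neither was the homing receptor Ccr7 (adjusted p = 0.918).

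Among the 24 genes of effector migration and the cytoskeleton, Myo6, Anxa2 and Ahnak fell, while 0.141% of all genes tested were called lower. Negative log2 fold changes numbered 20 of 24 (median -0.22), against 9530 of 19197 genes tested (median 0.002). At an unadjusted p under 0.05 in edgeR, 11 were lower and 1 higher (50%, against 11% of all genes tested). Anxa2, annexin A2, binds membrane and actin, and the giant scaffold protein Ahnak is one of its partners. Anxa2 was at 101, 91.8 and 84 CPM in Batf3-/- CD62L- and 124, 116 and 102 CPM in Batf3-/- CD62L+ libraries, against 153, 141 and 127 CPM in WT CD62L- and 194, 178 and 177 CPM in WT CD62L+ libraries. The highest Batf3-/- library was below the lowest WT library, and the fold was 1.56 (log2 fold change -0.64, SE 0.08, adjusted p = 0.00805). Ahnak, at 60.2 to 79.9 CPM (median 68.6) in Batf3-/- and 80.4 to 135 CPM (median 109) in WT libraries, was 1.6-fold lower without overlap (adjusted p = 0.0152). Cd44, whose protein was used to gate the cells, had a log2 fold change of -0.51 and was not called by edgeR (adjusted p = 0.0604), but it was by DESeq2 (adjusted p = 0.000203) and limma's voom (adjusted p = 0.00817).

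Promoters from 250 bases before to 50 bases after the gene start were available from RefSeq (GRCm38.p6) for 46 of the 65 genes and for 10605 of all genes tested. Motifs searched in them numbered 7, of which AP-1, the interferon-stimulated response element and the heat shock element are described with the genes they concern. The share of promoters with a CRE (TGACGTCA) was 7.69% for higher and 0% for lower genes (3.19% of all genes tested), with an E box (CACGTG) 11.5% and 5% (10%), with a CCAAT box 53.8% and 30% (38.9%), and with a STAT motif (TTCNNNGAA) 7.69% and 10% (6.91%). The AP-1 motif TGANTCA, searched on both strands, was present in 5 of 20 promoters of genes that were lower (25%), those of Anxa2, Art2b, Ccr4, Il17rb and Slc9a9. It was present in 2 of 26 promoters of genes that were higher (7.69%) and in 5.12% of the promoters of all genes tested. The 2 sequences given are those of the most significant of these genes, with the motif in capitals. The Il17rb promoter spans chr14:30008847-30009146 on the minus strand, with the match 104 bases before the start. The Anxa2 promoter spans chr9:69453433-69453732 on the plus strand, with the match 95 bases before the start. A match of letters is a description and not evidence of binding.
Il17rb: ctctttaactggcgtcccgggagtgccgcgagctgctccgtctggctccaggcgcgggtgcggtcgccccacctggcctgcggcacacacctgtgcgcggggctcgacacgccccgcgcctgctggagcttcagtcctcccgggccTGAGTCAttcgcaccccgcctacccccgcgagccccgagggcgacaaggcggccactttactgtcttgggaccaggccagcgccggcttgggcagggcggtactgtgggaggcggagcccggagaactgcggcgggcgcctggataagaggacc
Anxa2: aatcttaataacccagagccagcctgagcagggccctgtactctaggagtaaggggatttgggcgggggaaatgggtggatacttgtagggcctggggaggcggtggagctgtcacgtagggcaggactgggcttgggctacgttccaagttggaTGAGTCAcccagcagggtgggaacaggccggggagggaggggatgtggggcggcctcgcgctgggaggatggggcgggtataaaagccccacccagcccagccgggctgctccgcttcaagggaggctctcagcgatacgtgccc

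Tigit, Rgs1, Malt1 and Il7r, receptors and signalling genes of T cells, were also lower. Tigit, a coinhibitory receptor abundant on follicular helper and effector T cells, stood at 153, 167 and 205 CPM in Batf3-/- CD62L- and 20.8, 23.2 and 33.1 CPM in Batf3-/- CD62L+ libraries, against 309, 363 and 441 CPM in WT CD62L- and 36.2, 44.7 and 53.4 CPM in WT CD62L+ libraries. Its groups did not overlap within a subset, and it was 1.92-fold lower (log2 fold change -0.94, SE 0.14, adjusted p = 0.0166). It was called in 8 of the 12 fits that left out a library, with the highest adjusted p (0.0671) without the second Batf3-/- CD62L- library. It was the only gene called of 11 coinhibitory receptors (0.141% of all genes tested were called lower). Rgs1, which damps chemokine receptor signals by switching off G proteins, ranged over 194 to 293 CPM (median 241) in Batf3-/- and 324 to 479.7 CPM (median 415) in WT libraries without overlap, a 1.74-fold difference (log2 fold change -0.8, SE 0.10, adjusted p = 0.00995).

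Malt1, the protease and scaffold that links the antigen receptor to NF-kB, averaged 141 ± 7.69 CPM in Batf3-/- CD62L- and 106 ± 6.69 CPM in Batf3-/- CD62L+ cells, against 237 ± 33.6 CPM in WT CD62L- and 137 ± 4.56 CPM in WT CD62L+ cells (SD, n = 3 each; edgeR adjusted p = 0.00995). It was the 1 gene called of 26 genes of T cell receptor signalling, while 0.141% of all genes tested were called lower. Of the 26, 23 had a negative log2 fold change (median -0.10), against 9530 of 19197 genes tested (median 0.002). At an unadjusted p under 0.05 in edgeR, 8 were lower and 1 higher (34.6%, against 11% of all genes tested). Il7r, the interleukin 7 receptor alpha chain of naive and memory T cells, had 20.6, 13.7 and 13.5 CPM in Batf3-/- CD62L- and 20.4, 27.1 and 27.9 CPM in WT CD62L- libraries, which overlapped. In CD62L+ cells it had 15.5, 18.9 and 17.5 CPM in Batf3-/- and 44.3, 40.2 and 32.1 CPM in WT libraries, which did not. The average was 1.88-fold lower (adjusted p = 0.019), and 4 of the 12 fits that left out a library called it. Il9r and Il7r were the genes called among 38 cytokine receptors and JAK-STAT genes, where 29 log2 fold changes were negative and the median was -0.08. In this list 8 were lower and 1 higher at an unadjusted p under 0.05 (23.7%).

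The remaining lower genes had varied roles. Art2b, a surface enzyme that transfers ADP-ribose from extracellular NAD, was 1.61-fold lower (adjusted p = 0.00938), and Smpdl3a, a secreted phosphodiesterase, 1.38-fold (adjusted p = 0.00935). Nipal1, of a family of magnesium transporters, was 1.79-fold lower (adjusted p = 0.00935), and these 3 genes were called in all 12 fits that left out a library. H2-Q2, a class I gene, had 87.1, 82.3 and 91.4 CPM in Batf3-/- CD62L- and 171, 181 and 171 CPM in WT CD62L- libraries. In CD62L+ cells it had 19.3, 18.8 and 20.1 CPM in Batf3-/- and 25.3, 23.3 and 27.5 CPM in WT libraries. It was 2-fold lower in CD62L- and 1.31-fold lower in CD62L+ cells (average 1.62-fold, adjusted p = 0.00103). Its near-identical neighbours can share reads, so its level is uncertain. Cela1, of the elastase family, was 2.33-fold lower (adjusted p = 0.0359; called in 1 of the 12 fits), Sytl2, a regulator of vesicle exocytosis, 2.17-fold (adjusted p = 0.0144), and Mpp4, a membrane scaffold, 2.09-fold (adjusted p = 0.0165). Ikzf3, the transcription factor Aiolos, was 1.49-fold lower (adjusted p = 0.0198) and Ccng1, cyclin G1 and a target of p53, 1.32-fold (adjusted p = 0.015). The ion exchanger of endosomes Slc9a9, the sulfate transporter Slc26a11, ceramide synthase Cers4 and the sorting receptor Sorl1 completed the group at 1.61-fold, 1.35-fold, 1.38-fold and 1.56-fold.

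Interferon-induced genes led those that were higher. Oas1a belongs to the oligoadenylate synthetases, interferon-induced sensors of double-stranded RNA, and lies at chr5:120896256-120907521 (mm10). It stood at 59.6, 63.8 and 80.4 CPM in Batf3-/- CD62L- against 31.9, 32 and 28.2 CPM in WT CD62L- libraries, and at 59.8, 57.6 and 58.1 CPM in Batf3-/- CD62L+ against 29.6, 32.8 and 32.3 CPM in WT CD62L+ libraries. All 6 Batf3-/- libraries were above all 6 WT libraries, and the fold was 2.02 (log2 fold change 1.02, SE 0.09, adjusted p = 0.000612). Its neighbour Oas1g ranged over 8.94 to 13.8 CPM (median 11.8) in Batf3-/- and 3.16 to 6.22 CPM (median 5.14) in WT libraries, without overlap and 2.33-fold higher (adjusted p = 0.0121). Oas1a and Oas1g are close paralogs, so reads may be shared and their values are not independent. Both passed in all 12 fits that left out a library.

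Usp18 removes the ubiquitin-like modifier Isg15 and restrains the interferon receptor. It had 64.1, 51.2 and 38.9 CPM in Batf3-/- CD62L- and 66, 47.3 and 29.7 CPM in Batf3-/- CD62L+ libraries, against 25.2, 21.3 and 15.8 CPM in WT CD62L- and 24.5, 22.8 and 14.8 CPM in WT CD62L+ libraries. The groups did not overlap, and the fold was 2.38 (log2 fold change 1.25, SE 0.21, adjusted p = 0.0331). Ifit3b, of a family that binds foreign RNA and has a near-identical copy in Ifit3, ranged over 4.62 to 10.2 CPM (median 6.64) in Batf3-/- and 1.95 to 4.48 CPM (median 2.71) in WT libraries and was 2.4-fold higher (adjusted p = 0.0358). Leaving out a library cost Usp18 its call in 9 of 12 fits (highest adjusted p 0.0933, without the third WT CD62L+ library) and Ifit3b in 11 (highest 0.111, without the second Batf3-/- CD62L- library).

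Beyond the 3 called members, most of the type I interferon list lay on the same side in both subsets. Of its 29 genes, 24 had a positive log2 fold change (82.8%, against 50.4% of all genes tested). An unadjusted p under 0.05 was found for 20, all higher (69%, against 5.75% of all genes tested in that direction). The median was 0.41, at 0.46 in CD62L- and 0.39 in CD62L+ cells, 0.46 in the libraries numbered 1 and 0.39 in those numbered 2 and 3. Members with an adjusted p between 0.05 and 0.1 included Oasl2 (log2 fold change 1.29, adjusted p = 0.0519), Isg15 (0.7, adjusted p = 0.0733) and Ifi44 (1.36, adjusted p = 0.0891). Isg15, the ubiquitin-like modifier, had 33.2, 37.3 and 40 CPM in Batf3-/- CD62L- and 29.4, 33.8 and 29.1 CPM in Batf3-/- CD62L+ libraries, against 25.9, 31.7 and 20.2 CPM in WT CD62L- and 13.3, 21.5 and 14.7 CPM in WT CD62L+ libraries. The regulator Irf7 had a log2 fold change of 0.11 and was not called (adjusted p = 0.71). The list of genes induced by interferon gamma had 0 of 27 genes called by edgeR, DESeq2 or voom, 2 of them at an unadjusted p under 0.05, both lower, and a median of -0.11.

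The interferon-stimulated response element, searched as GAAANNGAA on both strands, was present in 3 of 26 promoters of higher genes (11.5%), in 2 of 20 of lower genes (10%, Ccr2 and Il4) and in 7.34% of all genes tested. The 3 promoters of higher genes that hold it, those of Oas1a, Oas1g and Ifit3b, are shown. Usp18 is not among them. The matched letters are in capitals, with overlapping matches joined. In Oas1a (chr5:120907476-120907775, minus strand) the matches begin 20 and 14 bases before the start, and in Oas1g (chr5:120887564-120887863, minus strand) 18 and 12 bases before it. In Ifit3b (chr19:34607707-34608006, plus strand) 3 matches lie between 187 and 134 bases before the start and read on the opposite strand. The capitals of Oas1a and Oas1g are the same letters at nearly the same distance.
Oas1a: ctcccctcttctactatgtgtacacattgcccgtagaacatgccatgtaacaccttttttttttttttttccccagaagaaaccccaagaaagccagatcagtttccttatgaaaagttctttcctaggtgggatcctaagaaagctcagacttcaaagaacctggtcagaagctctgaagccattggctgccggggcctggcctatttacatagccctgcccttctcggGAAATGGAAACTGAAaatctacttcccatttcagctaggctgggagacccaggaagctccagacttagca
Oas1g: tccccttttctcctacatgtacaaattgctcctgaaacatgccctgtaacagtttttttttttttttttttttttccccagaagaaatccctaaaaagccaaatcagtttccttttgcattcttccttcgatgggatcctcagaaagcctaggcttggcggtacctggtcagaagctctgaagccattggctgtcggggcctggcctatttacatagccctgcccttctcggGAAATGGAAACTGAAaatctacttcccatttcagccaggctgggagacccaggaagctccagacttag
Ifit3b: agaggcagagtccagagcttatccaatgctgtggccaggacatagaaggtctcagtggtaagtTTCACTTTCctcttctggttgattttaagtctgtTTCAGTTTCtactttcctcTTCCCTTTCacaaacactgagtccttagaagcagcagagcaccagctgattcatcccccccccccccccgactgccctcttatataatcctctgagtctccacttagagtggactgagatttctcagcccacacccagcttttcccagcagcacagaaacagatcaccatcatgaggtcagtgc

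Chaperones of the heat shock response were among the higher genes. Hspa1b, a chaperone that cells make on protein stress, stood at 21.5, 46.3 and 75.4 CPM in Batf3-/- CD62L- against 10.8, 12.8 and 13.8 CPM in WT CD62L- libraries, and at 21.3, 38.3 and 55.1 CPM in Batf3-/- CD62L+ against 11.5, 13.4 and 16 CPM in WT CD62L+ libraries. The Batf3-/- libraries spread widely, with the libraries numbered 1 lowest in both subsets, and none reached down to the WT range. The fold was 3.28 (log2 fold change 1.71, SE 0.29, adjusted p = 0.0329), with log2 differences of 0.91 in the libraries numbered 1 and 1.86 in those numbered 2 and 3. It was called in 3 of the 12 fits that left out a library (highest adjusted p 0.0874, without the third WT CD62L- library). Hspa1a, its near-identical neighbour, had a log2 fold change of 1.56 and an adjusted p of 0.0506, and reads between the 2 copies cannot be separated.

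The mitochondrial chaperones Hspd1 (Hsp60) and Hspe1 (Hsp10), whose genes lie head to head and overlap over 4.24% of the exon length of Hspd1 and 7.6% of that of Hspe1, and the cytosolic Hsp110 gene Hsph1 were the other called members. Hspd1 averaged 202 ± 4.35 CPM in Batf3-/- CD62L- and 290.2 ± 14.5 CPM in Batf3-/- CD62L+ cells, against 171 ± 13.6 CPM in WT CD62L- and 198 ± 13.8 CPM in WT CD62L+ cells (SD, n = 3 each; 1.32-fold, edgeR adjusted p = 0.0166). Hsph1 was 1.33-fold higher (adjusted p = 0.0166) and Hspe1 1.54-fold (adjusted p = 0.0331). Hspd1, Hsph1 and Hspe1 were called in 6, 5 and 4 of the 12 fits that left out a library. Of the 30 tested heat shock genes, 4 passed, all higher, 26 had a positive log2 fold change and 53.3% had an unadjusted p under 0.05, against 0.198% called higher, 50.4% positive and 11% at an unadjusted p under 0.05 of all genes tested. The median was 0.25, at 0.14 in CD62L- and 0.36 in CD62L+ cells, and 0.21 and 0.25 in the libraries numbered 1 and in those numbered 2 and 3.

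The core of the heat shock element, searched as GAANNTTC on both strands, was present in 3 of 26 promoters of higher genes (11.5%: Hspa1b, Hspe1 and Hsph1), in 0 of 20 of lower genes and in 5.87% of all genes tested. The promoter of Hspa1b (chr17:34959189-34959488, minus strand) is shown with the match, 104 bases before the start, in capitals.
Hspa1b: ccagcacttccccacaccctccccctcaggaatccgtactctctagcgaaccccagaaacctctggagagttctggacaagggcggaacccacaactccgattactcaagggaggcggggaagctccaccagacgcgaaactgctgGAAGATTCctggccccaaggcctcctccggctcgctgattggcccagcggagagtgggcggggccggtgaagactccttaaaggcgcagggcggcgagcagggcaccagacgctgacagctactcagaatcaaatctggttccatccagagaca

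Myc, the transcription factor that drives cell growth, was higher, as were single genes of polyamine synthesis and ribosome production. Myc stood at 69.1, 70.3 and 78.9 CPM in Batf3-/- CD62L- and 93.9, 98.6 and 109.7 CPM in Batf3-/- CD62L+ libraries, against 37.5, 49 and 48.1 CPM in WT CD62L- and 71.8, 76.7 and 64.5 CPM in WT CD62L+ libraries. The libraries did not overlap within a subset, and the fold was 1.52 (log2 fold change 0.6, SE 0.09, adjusted p = 0.0144). It was called in 9 of the 12 fits that left out a library, with adjusted p up to 0.0548, without the third WT CD62L+ library. Srm, spermidine synthase, had 43.2, 37.8 and 43.6 CPM in Batf3-/- CD62L- and 72.1, 84.9 and 68.5 CPM in Batf3-/- CD62L+ libraries, against 32, 30.9 and 24.2 CPM in WT CD62L- and 40.2, 41.2 and 38.3 CPM in WT CD62L+ libraries. Its fold was 1.64 (log2 fold change 0.71, SE 0.09, adjusted p = 0.00995), and the adjusted p was at most 0.0371 in the 12 fits that left out a library. Eif5a, the translation factor whose hypusine is made from spermidine, was 1.26-fold higher (adjusted p = 0.015). Odc1, the enzyme before Srm in polyamine synthesis, had a log2 fold change of -0.14 and was not called (adjusted p = 0.856).

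In the nucleolus, Nolc1, a chaperone of small nucleolar ribonucleoproteins, Ppan, a ribosomal RNA processing factor, and Nhp2, of the pseudouridylation particles, were 1.36-fold, 1.4-fold and 1.3-fold higher (adjusted p = 0.0342, 0.0361 and 0.048). Each was called in 2 or fewer of the 12 fits that left out a library. Of all genes tested, 5.75% were higher at an unadjusted p under 0.05 and 50.4% had a positive log2 fold change. Of the 33 tested genes of ribosome biogenesis, 31 had a positive log2 fold change, 16 had an unadjusted p under 0.05, all higher, and the median was 0.22 (0.25 in the libraries numbered 1 and 0.22 in those numbered 2 and 3). Of 36 ribosomal protein genes none was called by edgeR and 2 each by DESeq2 and voom. Among these 36, 10 had an unadjusted p under 0.05, all higher, and 34 were positive. Their median was 0.17, at 0.29 in CD62L- and 0.07 in CD62L+ cells. Mitochondrial genes among those higher were C1qbp, a matrix protein (1.41-fold, adjusted p = 0.0153), and Tomm40, the import channel of the outer membrane (1.34-fold, adjusted p = 0.0224). G1/S genes (23 tested) had no edgeR call, 2 by DESeq2 and 1 by voom, 4 with an unadjusted p under 0.05, all higher, and a median of 0.14.

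The direction of the called genes went with exon length. Genes that were higher had a median exon length of 2297.5 bases and genes that were lower one of 4272 bases. The median was 2788 bases over all genes tested and 3992.5 bases over the 9308 with a mean log2 CPM of 3 or more. Against these 9308 the median of the lower genes lay close by. That of the higher genes lay below their lower quartile (2390.75 bases). In 5 length classes of the genes with a mean log2 CPM of 3 or more, the median recipient log2 fold change ran from 0.07 in the shortest to -0.09 in the longest. With each library's trend of level on exon length taken out, 64 genes passed, 51 of them among the 65, and all 65 kept their direction. The median then was 0.10 for ribosomal protein genes, 0.23 for ribosome biogenesis, 0.23 for heat shock and 0.38 for interferon genes, and -0.31 for type 2 and -0.28 for trafficking genes. Genes that lost their call this way included Ccr4 (adjusted p = 0.0531), Ccr6 (0.0627), Sorl1 (0.0627) and Hspe1 (0.0803).

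**Figure D4:**
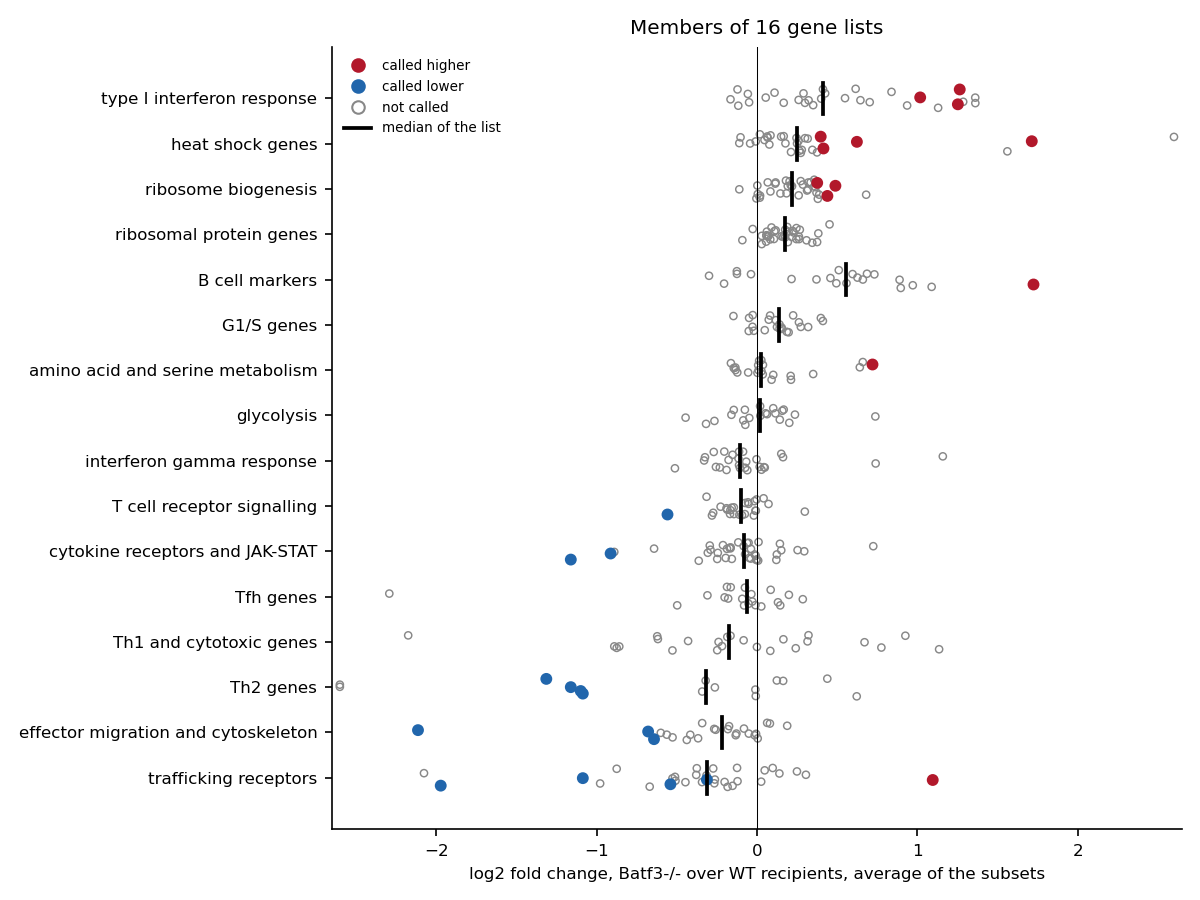
Recipient log2 fold change (Batf3-/- over WT, average of both subsets) of the members of 16 gene lists, each point a gene, filled where it was called, with the median of each list as a bar. Interferon, heat shock and ribosome biogenesis members lie mostly above 0, and trafficking, migration and type 2 members mostly below it; 3 members past the axis are drawn at its edge.

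Other genes that were higher did not fall in one group. Nrn1, a lipid-anchored surface protein first described in neurons, averaged 48.4 ± 4.55 CPM in Batf3-/- CD62L- and 87.2 ± 7.34 CPM in Batf3-/- CD62L+ cells, against 30.7 ± 4.13 CPM in WT CD62L- and 50.9 ± 5.51 CPM in WT CD62L+ cells (SD, n = 3 each; 1.65-fold, edgeR adjusted p = 0.00995). Mif, a proinflammatory cytokine, and Ly6a, the interferon-induced surface protein Sca-1, were 1.41-fold and 1.39-fold higher (adjusted p = 0.021 and 0.0172). Gsto1, a glutathione transferase, was 1.81-fold, Ifrd2, which associates with ribosomes, 1.59-fold and the folate carrier Slc19a1 1.42-fold higher. Marcksl1, an actin-binding membrane protein, was 1.58-fold higher without overlap, as was Slc9b2, a sodium and proton exchanger, at 1.33-fold, and Ptma, the nuclear protein prothymosin alpha, was 1.25-fold higher. A further 6 called genes, Gm12346, Gm15459, Gm20390, Gm26825, Gm43291 and 1 gene known by a clone name, are gene models, of which Gm20390 overlaps Nme2 and Gm26825 and Gm15459 overlap each other, so these are not separate measurements.

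For some called genes the estimates in both subsets lay far apart, although none passed the edgeR test of a difference between subsets. Tnfrsf9, the costimulatory receptor 4-1BB, had a log2 fold change of 1.0 in CD62L+ and 0.13 in CD62L- cells (unadjusted p of the difference 0.00113, edgeR). Nrgn, which binds calmodulin, had 2.33 in CD62L+ and 0.25 in CD62L- cells (0.000233), and Ppa1, the inorganic pyrophosphatase, 0.63 and 0.13 (0.00229). Ckb, creatine kinase B, had 1.06 in CD62L- and 0.27 in CD62L+ cells (0.00601). Such genes numbered 17 of 65 at an unadjusted p under 0.05 for the difference, against 3.94% of all genes tested. Of the genes described above, Ccr2, H2-Q2, Itgb1, Malt1, Mpp4, Cers4, Slc26a11, Hspd1, Hsph1 and Slc9b2 are also among them.

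Transcription factors and cytokines that define other T helper lineages were not called by edgeR. Bcl6 (adjusted p = 0.439), Tbx21 (0.333), Foxp3 (0.705), Tcf7 (0.488) and Prdm1 (0.753) had log2 fold changes of -0.16, -0.62, 0.19, -0.12 and -1.02. The follicular cytokine Il21 and the follicle-homing receptor Cxcr5 had 0.09 and -0.2 (adjusted p = 0.821 and 0.219). Of all genes tested, 5.75% were higher and 5.23% lower at an unadjusted p under 0.05 (11% in all). Of 20 follicular helper genes 0 were called by edgeR, and 6 were lower and 1 higher at that unadjusted p (35%). Their median was -0.06, at -0.16 in CD62L- and 0.02 in CD62L+ cells. DESeq2 called 3 of these 20 and voom 2, Cxcr5 among both (adjusted p = 0.0418 and 0.0383). The type 1 genes Ifng, Il12rb2 and Cxcr3 had 0.08, -0.89 and -0.53 (adjusted p = 0.933, 0.688 and 0.204). Of 24 type 1 and cytotoxic genes 0 were called by edgeR, and 7 were lower and 1 higher at an unadjusted p under 0.05 (33.3%). Their median was -0.175, at 0.12 in CD62L- and -0.23 in CD62L+ cells. DESeq2 called 2 of these 24, with Cxcr3 at an adjusted p of 0.0317, and voom called 1. Il2ra, the high-affinity interleukin 2 receptor chain, had 0.73 (adjusted p = 0.167 by edgeR, 0.0186 by DESeq2 and 0.0423 by voom), and the leukocyte marker Ptprc -0.17 (adjusted p = 0.388). These values do not show that the levels were equal. Of 14 Th17 genes edgeR called Ccr6 alone, DESeq2 called 2 and voom 1. At an unadjusted p under 0.05, 5 of the 14 were higher and 1 lower (42.9%). The median of this list was 0.35, at 0.125 in CD62L- and 0.43 in CD62L+ cells. It was 0.03 in the libraries numbered 1 and 0.17 in those numbered 2 and 3. Of the 26 early antigen receptor response genes, Myc rose and Rgs1 fell, and their median changed sign with the libraries read, at -0.38 in those numbered 1 and 0.25 in those numbered 2 and 3.

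Markers of other cell types were read in the same libraries. The summed level of 21 B cell markers was 309 to 354 CPM in Batf3-/- CD62L- and 779.9 to 1007 CPM in Batf3-/- CD62L+ libraries, against 256 to 297 CPM in WT CD62L- and 688 to 878 CPM in WT CD62L+ libraries. The two-sided exact permutation test within subsets gave p = 0.08 (adjusted 0.34 over 17 such values; the smallest p this design allows is 0.005). None of the 21 was at 0 in all 12 libraries, and 1 was called (0.198% of all genes tested were called higher). In edgeR 11 of 21 had an unadjusted p under 0.05, all higher (52.4%, against 5.75% of all genes tested in that direction). Wdfy4, which dendritic cells need for cross-presentation and which B cells also express, had 0.959, 1.34 and 0.913 CPM in Batf3-/- CD62L- and 0, 0 and 0.0559 CPM in WT CD62L- libraries, with overlap in CD62L+ cells. The gene model Gm43291 on chromosome 6 was likewise at 0.156, 0.177 and 0.314 CPM in Batf3-/- CD62L- libraries and at 0 in the 3 WT CD62L- libraries. With the summed B cell marker level as a covariate, 7 of the 65 genes stayed called (Oas1a, Usp18 and Srm higher, Myo6, H2-Q2, Rgs1 and Tigit lower), and all 65 kept their direction. In CD62L- cells this level did not overlap between recipients, so the covariate varied with the recipient and the fit cannot separate them.

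Erythroid markers summed to 9.90 to 50.1 CPM in Batf3-/- CD62L- and 10.4 to 37.3 CPM in Batf3-/- CD62L+ libraries, against 47.1 to 101 CPM in WT CD62L- and 58.5 to 68.0 CPM in WT CD62L+ libraries (exact permutation p = 0.01, adjusted 0.128). Of 7 tested erythroid genes none was called by edgeR, 3 by DESeq2 and 4 by voom (3.02% and 1.44% of all genes tested). In edgeR 5 had an unadjusted p under 0.05, all lower (71.4%, against 5.23% of all genes tested in that direction). Car1 was at 0 in all 12 libraries. Dendritic cell and macrophage markers summed to 83.9 to 95.1 CPM in Batf3-/- CD62L- and 89.0 to 93.7 CPM in Batf3-/- CD62L+ libraries, against 70.4 to 86.6 CPM in WT CD62L- and 75.5 to 84.0 CPM in WT CD62L+ libraries (exact permutation p = 0.015, adjusted 0.128). Of 19 tested members none was called by edgeR, DESeq2 or voom and none had an unadjusted p under 0.05 (11% of all genes tested had one). The part of these cells, and of B cells, in the gene differences above was not tested.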

How the data were processed

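The authors deposited raw counts, not normalized, of 49492 genes in 15 libraries, in a table that also gives exon positions and the total exon length of a gene in bases. Per the labels' protocols, RNA of sorted cells was amplified in 13 PCR cycles as whole transcriptome cDNA, and a transposase kit made the libraries. The submitters' processing notes name STAR 2.7.3a, Subread 1.6.5 with featureCounts, Trimmomatic 0.36, FastQC and genome build mm10. The annotation release and strand setting are not given in the sources used here, so overlapping and antisense genes cannot be separated. Amplified reads without molecular identifiers are not independent molecules.

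Groups came from the sample titles. The filter filterByExpr of edgeR (minimum count 10), applied to the 12 primed libraries, left 19197 genes, and TMM scaled the libraries. The quasi-likelihood model (robust) of edgeR 4.0.16 in R 4.3.3 had 1 term per group, with recipient contrasts within each subset, their mean and their difference, Benjamini-Hochberg adjusted over all 19197 genes at 0.05. The size of a log2 fold change over the root of its F statistic gave the standard error. The fit was tested on simulated counts. Values per library were compared by exact permutation of recipients within subsets (400 arrangements, two-sided). Alternatives used DESeq2 1.42.0, limma 3.58.1, other filters and scalings, covariates, omission of single libraries and a replicate block. Naive libraries entered no recipient test, and their levels were scaled with all 15 libraries.

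The comparison, the gene lists (49) and the naming rule were chosen with earlier results of these data known. The rule took 20 genes whatever their values, and among called genes with equal signs and at least 5 CPM the 12 with the largest changes and the 6 with the smallest p per direction, leaving out gene models, pseudogenes and ribosomal, mitochondrial and small RNA genes. It added the 2 most significant called members of each list per direction. Called genes named outside it, and members of lists that were not called, were chosen after their values were seen. Some genes are not reported here. Promoters came from RefSeq tables of GRCm38.p6 and were matched by symbol.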

Additional observations from a re-analysis of the deposited data

How the results depend on the processing

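All 65 genes kept their direction under every alternative that tested them (64 were tested under the stricter filter). These fits reuse the libraries on which the genes were called, so this too is a description and no test. The number called in the average was 579 with DESeq2's Wald test and 277 with limma's voom, against 65 with edgeR. It was 227 with the ribosomal RNA share as a covariate and 24 without the CD62L- libraries numbered 3, and 15 to 72 when each library was left out in turn. Among alternatives chosen after seeing the data, it was 7 with the B cell marker level as a covariate and 26 without the 4 libraries numbered 1. Counts thinned to the lowest total gave 89, and removal of the exon length trend gave 64.

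In CD62L- cells (14 called) the counts were 356 with DESeq2, 51 with voom, 46 and 22 with the ribosomal RNA and the mitochondrial share as covariates, 4 without the CD62L- libraries numbered 3, 1 with the B cell covariate, 0 without the libraries numbered 1 and 6 with the length trend removed, and 0 to 13 with a library left out. In CD62L+ cells (7 called) they were 158, 66, 39, 13, 3, 0, 0 and 3 under these settings in the same order, 3 with RLE size factors, 11 under the stricter filter, 1 with all 15 libraries in the fit and 3 with ribosomal RNA and mitochondrial genes removed, and 0 to 7 with a library left out. The difference between subsets (0 called) gave 43 with DESeq2, 1 with voom, 1 with no filter, 2 with the ribosomal RNA share, and 0 to 1 with a library left out. The cause of these changes was not tested, except that settings which leave out libraries have fewer of them.

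Replicate numbers are shared between groups, but no label says that a number marks a shared animal or day. Deviations of libraries with the same number correlated at 0.0263 to 0.1174, 4 of 18 pairs over 0.1, and 12 of 12 libraries were closest to their own number, a hint from the data and not from the design. With the replicate block 216 genes were called in the average, 69 in CD62L- cells, 41 in CD62L+ cells and 1 for the difference between subsets.

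Depth was lowest in WT CD62L- libraries, so genes of low level there, Wdfy4 and Gm43291 among them, have no fold given.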

Other observations

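The 3 naive libraries, which entered no recipient test, place the called genes against the level before transfer. Naive and primed cells differ in transfer, host, organ and sort as well as in priming, so these values are a description. Of the 65 genes, 27 were lower in all 3 naive libraries than in every primed library, 16 of the 27 genes lower in Batf3-/- recipients (59.3%) and 11 of the 38 higher ones (28.9%), against 13.8% of all genes tested. Il4 had 0.0669, 0.0983 and 0.0123 CPM in the naive libraries, Tigit 0.449, 0.221 and 0.751 CPM and Il17rb 2.55, 4.18 and 3.05 CPM, all under the primed range. Nrn1 (0, 0.0246 and 0.0246 CPM) and Hspa1b (2.14, 2.42 and 1.76 CPM), higher in cells from Batf3-/- recipients, were also under that range. For 7 genes the naive libraries lay above every primed library (10.8%, against 12.8% of all genes tested). These are Il7r, Selplg and Sorl1, lower in cells from Batf3-/- recipients, and Ifit3b, Ly6a, Ppan and Usp18, higher in them. Usp18 had 171, 158 and 137 CPM and Ifit3b 47.2, 46.5 and 37.1 CPM in naive libraries. Myo6 had 25.1, 30.3 and 25.1 CPM in naive libraries, between the ranges of the Batf3-/- and the WT libraries.

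Over all genes tested, 50.4% had a positive log2 fold change and 11% an unadjusted p under 0.05 in edgeR. Of the lists not described above, oxidative phosphorylation had 22 of 25 members with a positive log2 fold change (88%, median 0.07). It had no edgeR call (1 each by DESeq2 and voom), with 5 members at an unadjusted p under 0.05 (20%). The integrated stress response list had 15 of 17 positive (88.2%, median 0.08). It had no edgeR or voom call, 1 by DESeq2 and 1 member at an unadjusted p under 0.05 (5.88%). Glycolysis (21 tested, median 0.02), RNA splicing factors (32, median -0.01) and the BCL2 family and death receptors (22, median -0.002) had no edgeR call (splicing factors had 1 by voom). Their medians were near that of all genes tested. They had 4, 4 and 2 members at an unadjusted p under 0.05 (19%, 12.5% and 9.09%).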
